A study of Homo sapiens with 7 samples.

Results

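The histone genes of the HIST clusters were followed through 7 RNA sequencing libraries of the human urothelial carcinoma cell line UM-UC-3. Members were all genes of the expression table whose symbol begins with HIST1H, HIST2H, HIST3H or HIST4H, which gave 65 of the 13872 genes listed. There were 4 genes of linker H1, 16 of H2A, 19 of H2B, 14 of H3 and 12 of H4. By cluster, 50 belonged to HIST1, 11 to HIST2, 3 to HIST3 and 1 to HIST4. The libraries came from 3 ALDH-high clones (numbers 1, 6 and 10), 3 ALDH-low clones (numbers 1, 3 and 8) and 1 culture of wild type cells, which the series names as its control. ALDH-high and ALDH-low clones had been isolated with the ALDEFLUOR assay, in which cells with more aldehyde dehydrogenase activity fluoresce more, and the series treats them as stem-like and non-stem-like cells. Cells were grown in DMEM with serum, all clones derive from the 1 line, and each library is 1 clone, so n = 3 counts clones, and for wild type there is no replicate. The values are CPM, read counts scaled by library size, in which 1 read was worth about 0.04 CPM. As a check of the sort, ALDH1A1, an aldehyde dehydrogenase gene, was at 96.32, 33.37 and 42.2 CPM among the ALDH-high clones 1, 6 and 10, compared with 0, 0.08 and 0 CPM among the ALDH-low clones 1, 3 and 8, with 37.85 CPM in wild type. The epithelial keratin gene KRT18 was present in every library, between 142.95 and 582.39 CPM.

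Core histones H2A, H2B, H3 and H4 form the protein spool around which DNA is wound, and linker H1 binds the DNA between spools. Dividing cells make most of this protein in S phase, from many short genes that lie in clusters, carry no introns and are transcribed under the coactivator NPAT. Their mRNAs mostly end in a conserved stem-loop bound by SLBP in place of a poly(A) tail, and are degraded when DNA synthesis stops.

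The RNA stem-loop that marks these mRNAs was read from GENCODE 29 transcripts (GRCh38), in DNA letters, as arms of 6 pairing bases that begin with GG around a loop of 4 that begins with TT and ends with C. It was found in a transcript of 23 of the 65 genes, in 2 forms. For 29 of the other 42 genes every GENCODE transcript holds the coding sequence alone and ends before a stem-loop could be seen, so the count is no count of genes that lack one. One form was carried by 18 genes, none of them H4, and the other by 5 genes, all of them H4. They are shown here for the H3 gene HIST1H3H (chr6:27810511-27810536, plus strand) and the H4 gene HIST1H4H (chr6:26285126-26285151, minus strand), with the stem and loop in capitals.
HIST1H3H: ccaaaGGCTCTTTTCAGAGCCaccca
HIST1H4H: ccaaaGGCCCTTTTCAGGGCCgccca

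Promoter windows came from RefSeq (GRCh38.p14) and matched 57 of the 65 genes. In the 250 bases before the annotated start, on either strand, CCAAT occurred in 50 of 57 histone windows (87.7%), against 33.0% of 27305 RefSeq windows of the same length. TATAAA occurred in 39 of the 57 (68.4%), against 11.1%, and TTTGCAT, the core of the octamer motif, in 23 (40.4%), against 3.98%. Matches of different motifs may overlap. The classes differed in these letters: TTTGCAT was in 10 of 15 H2A windows and 13 of 17 H2B windows but in 0 of the 4 linker H1, 11 H3 and 10 H4 windows. CCAAT was in every linker H1, H2A, H2B and H3 window and in 3 of 10 H4 windows. Many H2A and H2B genes face away from each other across 1 stretch of DNA and so share these letters. To show how the motifs are arranged, windows are printed with the 3 motifs in capitals where present for 3 of the genes that DESeq2 called higher, described below, and for the most abundant linker gene, HIST1H1B: HIST2H2BF (chr1:149812341-149812520, minus strand), HIST1H2BM (chr6:27814872-27815051, plus strand), HIST4H4 (chr12:14771102-14771281, minus strand) and HIST1H1B (chr6:27867559-27867738, minus strand). Each runs from 150 bases before the start to 30 bases after it. The last line is the whole 230 bases between the starts of HIST3H2A and HIST3H2BB, with 30 bases of HIST3H2BB (chr1:228457873-228458132, plus strand).
HIST2H2BF: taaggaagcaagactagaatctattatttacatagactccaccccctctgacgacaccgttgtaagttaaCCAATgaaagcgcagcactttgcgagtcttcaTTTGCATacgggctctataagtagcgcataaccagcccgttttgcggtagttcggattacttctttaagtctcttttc
HIST1H2BM: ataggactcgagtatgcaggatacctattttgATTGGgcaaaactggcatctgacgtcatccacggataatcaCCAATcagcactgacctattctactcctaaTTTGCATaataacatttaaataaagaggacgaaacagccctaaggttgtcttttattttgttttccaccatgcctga
HIST4H4: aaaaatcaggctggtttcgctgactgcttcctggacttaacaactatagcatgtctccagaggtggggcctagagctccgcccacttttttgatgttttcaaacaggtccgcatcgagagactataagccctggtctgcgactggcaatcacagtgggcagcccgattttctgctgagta
HIST1H1B: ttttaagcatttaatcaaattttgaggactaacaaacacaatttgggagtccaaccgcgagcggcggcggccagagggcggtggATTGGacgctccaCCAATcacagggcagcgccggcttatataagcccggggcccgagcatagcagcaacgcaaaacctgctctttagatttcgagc
HIST3H2BB: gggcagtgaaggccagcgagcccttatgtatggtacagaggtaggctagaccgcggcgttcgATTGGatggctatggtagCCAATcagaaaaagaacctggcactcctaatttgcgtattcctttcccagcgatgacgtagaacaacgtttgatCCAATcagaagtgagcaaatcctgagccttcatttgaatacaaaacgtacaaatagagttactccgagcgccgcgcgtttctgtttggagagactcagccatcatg
HIST2H2BF and HIST1H2BM held both CCAAT and TTTGCAT, HIST1H1B and the HIST3 pair held CCAAT alone, and HIST4H4 held none of the 3 as spelled.

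Histone mRNA was abundant in every library. The 65 genes summed to 67923.5, 95915.3 and 85113.5 CPM among the ALDH-high clones 1, 6 and 10, compared with 59028.7, 63737.0 and 48400.4 CPM among the ALDH-low clones 1, 3 and 8, and 35899.1 CPM in wild type. The sums did not overlap, with the mean at 82984.1 ± 14116.9 CPM in ALDH-high and 57055.4 ± 7856.4 CPM in ALDH-low clones (SD, n = 3 each), a ratio of 1.45. As a share of each library's column, they took 6.66, 9.64 and 8.64% in the ALDH-high clones, 5.9, 6.44 and 5.0% in the ALDH-low clones and 3.56% in wild type. Among the 100 highest genes of a library, histone genes numbered 18, 29 and 29 in ALDH-high clones 1, 6 and 10, then 19, 23 and 15 in ALDH-low clones 1, 3 and 8, and 3 in wild type. This last count overlapped between the sorted groups, since ALDH-high clone 1 lay below ALDH-low clones 1 and 3.

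All 5 classes had larger sums in the ALDH-high clones. Linker H1 summed to 7860.7 ± 1705.1 CPM in ALDH-high and 5162.9 ± 906.0 CPM in ALDH-low clones (SD, n = 3 each), 1.52 times as much. The ratio was 1.43 for H2A, 1.45 for H2B, 1.52 for H3 and 1.37 for H4. The H3 ratio was 1.44 without HIST2H3C, a gene with 1 outlying clone that is described below. No class sum overlapped between the groups. The proportions of the classes moved little: H2A made up 24.8 ± 1.2% of histone CPM in ALDH-high and 25.4 ± 0.725% in ALDH-low clones, and 23.2% in wild type. H4 varied most widely between single clones, from 15.6% in ALDH-high clone 6 to 19.6% in ALDH-high clone 1, with 19.5% in wild type.

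**Figure D1:**
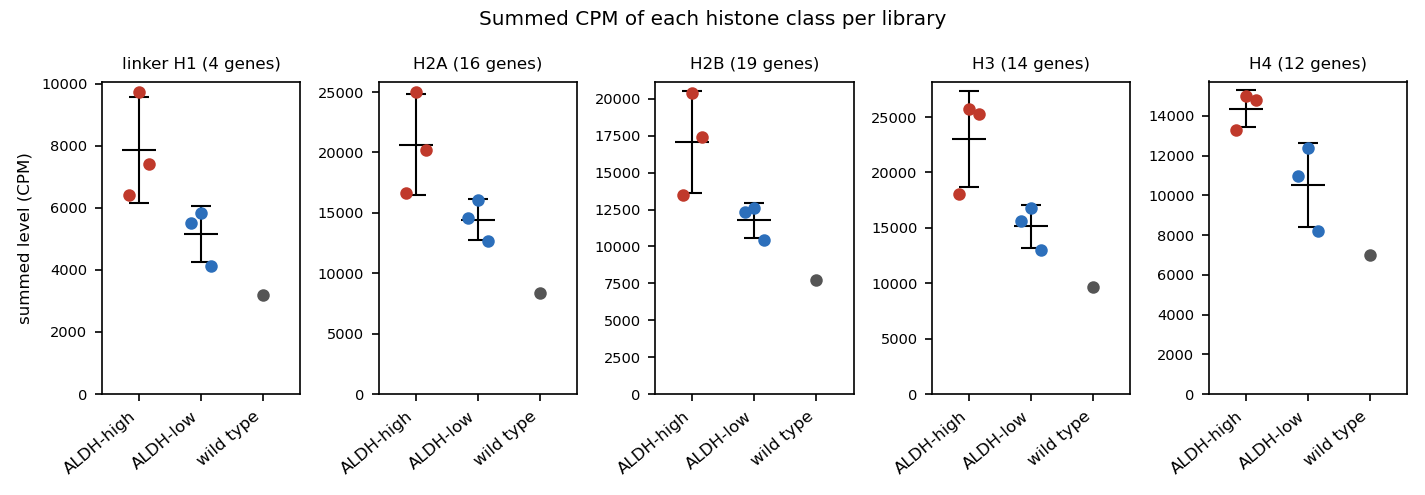
Summed level of each histone class (vertical axis, CPM, starting at 0) in ALDH-high clones, ALDH-low clones and wild type. Each point is 1 library, and black marks give the mean with SD over 3 clones. In every class the 3 ALDH-high sums lie above the 3 ALDH-low sums, and wild type lies below all 6 clones.

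Gene by gene, the ALDH-high clones were compared with the ALDH-low clones in a limma fit over 12705 genes on log2(CPM + 1), in which 62 histone genes had at least 1 CPM in 3 or more clones. HIST3H2BA, HIST1H4F and HIST2H2BB were too low to test. The change, ALDH-high minus ALDH-low, was positive for 61 of the 62 and negative for HIST1H3E alone. Its median was 0.52 log2 units, while the median over all genes tested was 0.0. By class the median was 0.57 for linker H1, 0.46 for H2A, 0.54 for H2B, 0.55 for H3 and 0.51 for H4. By cluster it was 0.51 for HIST1, 0.63 for HIST2, 1.18 for the 2 genes tested of HIST3, and 1.16 for HIST4H4.

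Single genes did not pass the threshold of an adjusted p of 0.05. Limma called 0 of the 62 higher and 0 lower (all genes: 0.645% higher, 0.693% lower), with a smallest adjusted p of 0.0635. At an unadjusted p under 0.05 there were 32 histone genes higher and 0 lower, where all genes gave 10.4% and 9.31%. The 3 ALDH-high values all lay above the 3 ALDH-low values in 37 of the 62, and all below in 0, against 14.0% and 12.1% of all genes. Among the 54 histone genes with a clone mean of at least 30 CPM, all 54 changes were positive and 35 did not overlap. On reads recovered from the CPM, edgeR called 0 higher and 0 lower (all genes: 0.425% higher, 0.59% lower). At an unadjusted p under 0.05 edgeR gave 31 higher, but its share of all genes at that threshold was not computed. DESeq2 on the same reads called 10 higher and 0 lower (all genes: 3.67% higher, 4.23% lower). These 10 were also the 10 with the smallest limma p, and 7 of them lie outside the HIST1 cluster, which holds 49 of the 62 genes tested. They were HIST3H2A, HIST2H2BF, HIST2H3DP1, HIST1H2AK, HIST1H2BM, HIST3H2BB, HIST2H2AB, HIST2H2BE, HIST4H4 and HIST1H4A. For HIST2H3C, DESeq2 gave no adjusted p. The limma count was 2 without ALDH-high clone 1, and the count at an unadjusted p was 11 without ALDH-high clone 6 and 10 without ALDH-low clone 8. Over all 12705 genes, both directions together, limma called 170 with all clones and 115 without ALDH-high clone 1. It called 57 without ALDH-high clone 6 and 37 without ALDH-low clone 8. Shares of all genes at an unadjusted p were not computed for these fits.

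**Figure D2:**
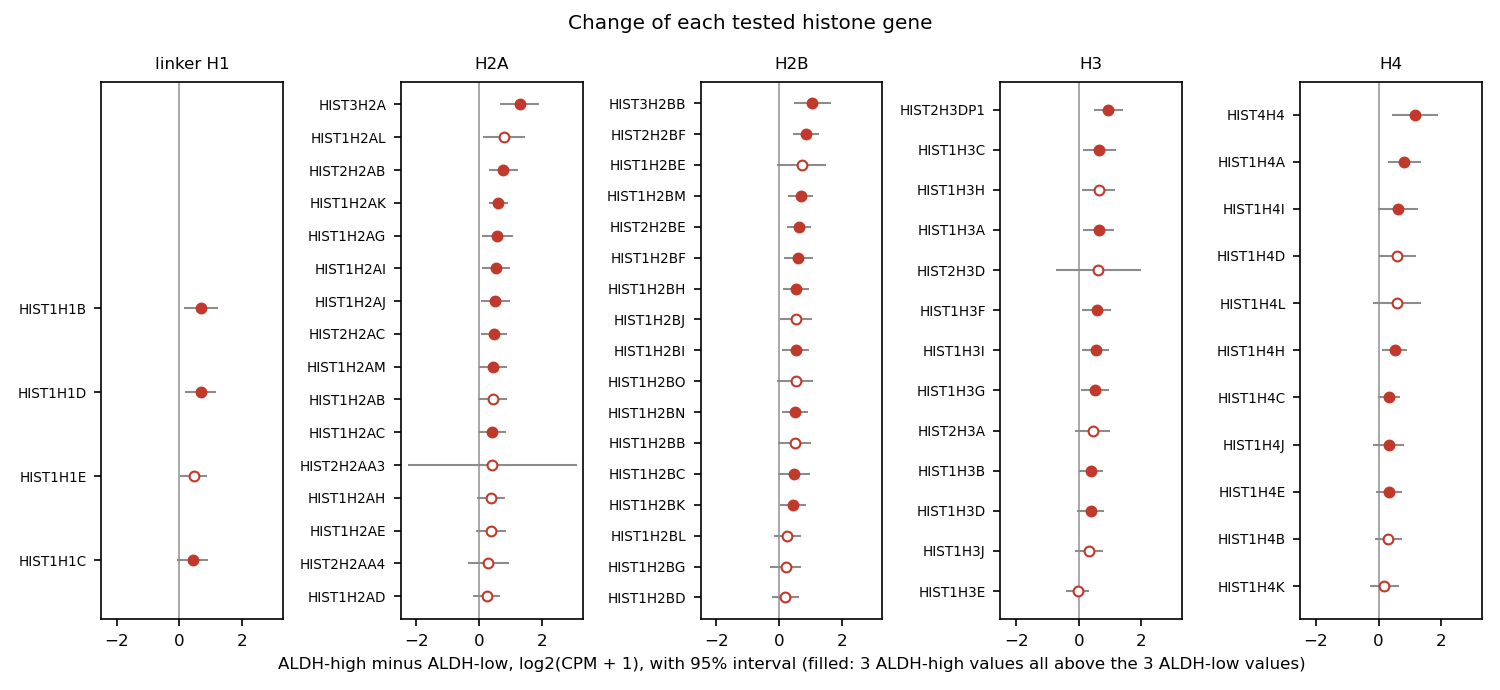
Change of each tested histone gene on the log2(CPM + 1) scale (horizontal axis, ALDH-high minus ALDH-low, point with 95% interval from limma), by class. HIST2H3C, with an interval from -5.44 to 7.94, is left out. Filled points are genes whose 3 ALDH-high values all lie above the 3 ALDH-low values, and all points but HIST1H3E lie right of 0.

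Among the linker histones, HIST1H1B reached the highest value of any histone gene in any library. It was at 3055.87, 4718.77 and 3410.09 CPM among the ALDH-high clones 1, 6 and 10, compared with 2511.17, 2571.09 and 1809.92 CPM among the ALDH-low clones 1, 3 and 8, and 1367.6 CPM in wild type. The groups did not overlap, and the change was 0.69 log2 units (SE 0.233, limma adjusted p = 0.166). HIST1H1D stood at 1250.61, 1787.07 and 1567.24 CPM among the ALDH-high clones, compared with 977.48, 1165.87 and 750.28 CPM among the ALDH-low clones, with 468.16 CPM in wild type. Its groups were also apart, by a change of 0.68 (SE 0.216, adjusted p = 0.149). HIST1H1E changed by 0.46 (SE 0.187, adjusted p = 0.222), and its groups overlapped because ALDH-high clone 1 had 370.79 CPM and ALDH-low clone 3 had 380.77 CPM. HIST1H1C had the smallest change of the 4, 0.43 (SE 0.217, adjusted p = 0.321).

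In the H2A class, HIST3H2A had the smallest p of all histone genes. ALDH-high clones 1, 6 and 10 held 100.02, 161.17 and 188.48 CPM of it, ALDH-low clones 1, 3 and 8 held 76.04, 47.81 and 54.68 CPM, and wild type held 43.88 CPM. All ALDH-high values lay above the ALDH-low values. The change was 1.30 log2 units (SE 0.266, limma adjusted p = 0.0635), and 1.56 without ALDH-high clone 1 (adjusted p = 0.0333). HIST1H2AK was at 442.2, 425.94 and 425.08 CPM among the ALDH-high clones, compared with 306.04, 287.31 and 254.6 CPM among the ALDH-low clones, with 138.12 CPM in wild type. The ALDH-high values lay close together, above all others. It changed by 0.61 (SE 0.134, adjusted p = 0.0714). HIST2H2AB changed by 0.77 (SE 0.205, adjusted p = 0.106), from 3 ALDH-high values of at least 331.61 CPM and 3 ALDH-low values of at most 300.59 CPM. The most abundant H2A genes, HIST1H2AI and HIST1H2AG, averaged 2468.2 ± 374 and 2429.3 ± 614 CPM in ALDH-high clones and changed by 0.53 and 0.58 (adjusted p = 0.191 and 0.188). HIST1H2AH has the same values in all libraries as the row of the microRNA gene MIR3143, and HIST2H2AC lies within 1.01% of BOLA1, so the source of those reads is uncertain.

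In the H2B class, HIST2H2BF was at 844.54, 1197.08 and 1242.08 CPM among the ALDH-high clones 1, 6 and 10, compared with 573.24, 594.62 and 599.44 CPM among the ALDH-low clones 1, 3 and 8, and 306.34 CPM in wild type. All ALDH-high clones were higher than all ALDH-low clones, which had an SD of 13.9 CPM, and the change was 0.87 (SE 0.18, limma adjusted p = 0.0636). Without ALDH-high clone 1 it was 1.05 (adjusted p = 0.0213). Its row is identical to that of RP11-196G18.21, a row named only by its genomic clone, and the 2 cannot be told apart. HIST3H2BB was at 168.13, 169.92 and 228.84 CPM among the ALDH-high clones, compared with 127.4, 63.21 and 87.8 CPM among the ALDH-low clones, with 77.57 CPM in wild type. It changed by 1.06 (SE 0.257, adjusted p = 0.0893). HIST1H2BM changed by 0.69 (SE 0.176, adjusted p = 0.1) and HIST2H2BE by 0.63 (SE 0.167, adjusted p = 0.106), both without overlap of the groups. HIST1H2BC, the most abundant H2B gene with 2066.54, 3515.73 and 2491.49 CPM among the ALDH-high clones and 1826.48, 2011.74 and 1809.92 CPM among the ALDH-low clones, changed by 0.48 (SE 0.219, adjusted p = 0.273). HIST1H2BO, the next in level, changed by 0.53 with overlapping groups. HIST1H2BG, the H2B gene with the largest p, changed by 0.21 (95% interval -0.28 to 0.70), and its groups overlapped.

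H2A and H2B genes that share a promoter region could be set side by side. In 10 pairs the RefSeq starts faced away from each other at a distance of 194 to 248 bases, and each was an H2A gene with an H2B gene. The changes of the 2 partners differed by a median of 0.16 log2 units, and by at most 0.2 in 7 of the 10 pairs. The class medians were themselves close, at 0.46 for H2A and 0.54 for H2B. Differences between genes that are not partners were not computed, so these values do not show that partners changed more alike. HIST3H2A and HIST3H2BB, whose shared region is printed above, changed by 1.30 and 1.06, and in both ALDH-low clone 3 was the lowest of the 6 clones. The widest difference, 0.38, was between HIST1H2AD at 0.24 and HIST1H2BF at 0.62. RefSeq gives HIST1H3D 2 starts, and 1 of them is also the start of HIST1H2AD (chromosome 6, base 26199293, minus strand), so reads of the 2 may not be separate; HIST1H3D changed by 0.38.

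In the H3 class, HIST2H3DP1, a pseudogene of low level, had the smallest p. It was at 10.97, 11.74 and 9.96 CPM among the ALDH-high clones, compared with 5.48, 5.97 and 4.24 CPM among the ALDH-low clones, with 4.32 CPM in wild type. The groups lay apart, by a change of 0.94 (SE 0.199, limma adjusted p = 0.0664). HIST1H3A was at 1095.36, 1628.64 and 1394.0 CPM among the ALDH-high clones, compared with 919.68, 1032.15 and 702.8 CPM among the ALDH-low clones and 353.18 CPM in wild type. Its change was 0.63 (SE 0.212, adjusted p = 0.164), and that of HIST1H3I was 0.54 (SE 0.184, adjusted p = 0.17), each without overlap. HIST1H3H, the most abundant H3 gene, averaged 3495.9 ± 889 CPM in ALDH-high clones and changed by 0.63 (SE 0.235, adjusted p = 0.194), with ALDH-high clone 1 and ALDH-low clone 3 almost level at 2638.79 and 2657.35 CPM. HIST1H3D changed by 0.38, and its 3 ALDH-low clones were close together, with an SD of 44.9 CPM. HIST1H3E was the exception in direction, at 23.48, 20.85 and 22.36 CPM among the ALDH-high clones, compared with 24.2, 24.51 and 20.0 CPM among the ALDH-low clones. Its change was -0.04 (95% interval -0.41 to 0.34).

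In the H4 class, HIST4H4, the lone member on chromosome 12, was at 449.11, 391.38 and 469.88 CPM among the ALDH-high clones 1, 6 and 10, compared with 252.08, 265.51 and 109.64 CPM among the ALDH-low clones 1, 3 and 8, and 195.23 CPM in wild type. The groups did not overlap, and the change was 1.16 (SE 0.319, limma adjusted p = 0.112). HIST1H4A was at 376.07, 269.85 and 341.92 CPM among the ALDH-high clones, compared with 220.92, 212.28 and 134.08 CPM among the ALDH-low clones, with 152.07 CPM in wild type, a change of 0.82 (SE 0.225, adjusted p = 0.112). In both genes ALDH-low clone 8 was far below the other ALDH-low clones. HIST1H4H, the most abundant H4 gene, averaged 2917.5 ± 321 CPM in ALDH-high clones and changed by 0.51 (SE 0.176, adjusted p = 0.174), and HIST1H4E, the next, by 0.33 (adjusted p = 0.361). Of all class medians, that of H4 moved most when 1 library was left out, to 0.29 without ALDH-low clone 8, in which the H4 median deviation from the clone mean was -0.52. HIST1H4F reached 4.89 CPM in ALDH-high clone 1 and at most 0.49 CPM in any other library, too few for a test.

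The clones of a group differed among themselves. ALDH-high clone 6 was the highest of the 6 clones for 45 of the 62 genes, ALDH-high clone 10 for 13, ALDH-high clone 1 for 3 and ALDH-low clone 3 for 1. ALDH-low clone 8 was the lowest for 53. How often each clone was highest or lowest among all genes tested was not counted. Set against each gene's mean over the 6 clones, the median histone gene stood at 0.02, 0.48 and 0.29 log2 units in ALDH-high clones 1, 6 and 10, and at -0.19, -0.09 and -0.49 in ALDH-low clones 1, 3 and 8. The median over all genes tested was 0.03, 0.03 and 0.0 in these ALDH-high clones and -0.03, 0.0 and 0.04 in these ALDH-low clones. H4 was less marked by clone 6, with medians of 0.16, 0.24 and 0.28 in ALDH-high clones 1, 6 and 10. In that class ALDH-high clone 6 was the highest clone for 4 of 11 genes, whereas it was for 13 of 16 H2A, 13 of 17 H2B and all 4 linker H1 genes.

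Wild type cells had the lowest level of most histone genes. The wild type value lay below all 6 clones in 51 of the 62 genes tested, against 25.4% of all genes tested, and above all 6 in 1, against 22.6%. The median histone gene in wild type was 0.92 log2 units below its clone mean (difference, wild type minus clones, -0.92; all genes -0.04). Over all 65 genes, wild type was below every clone in 4 of 4 linker H1, 16 of 16 H2A, 14 of 19 H2B, 13 of 14 H3 and 5 of 12 H4 genes. By the distance from wild type to the lowest clone on the log2(CPM + 1) scale, the gene farthest below was HIST1H2AE, with 1228.12 to 1964.49 CPM in ALDH-high clones, 1210.6 to 1331.64 CPM in ALDH-low clones and 555.53 CPM in wild type. HIST1H3D, at no less than 2234.24 CPM in the clones and 1115.25 CPM in wild type, and HIST1H3A, described above, came next. HIST1H4K was the only gene above all clones, at 2.64 to 3.8 CPM in clones and 6.47 CPM in wild type, and it is a copy of low level. With 1 wild type library, these differences have no replicate check.

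**Figure D3:**
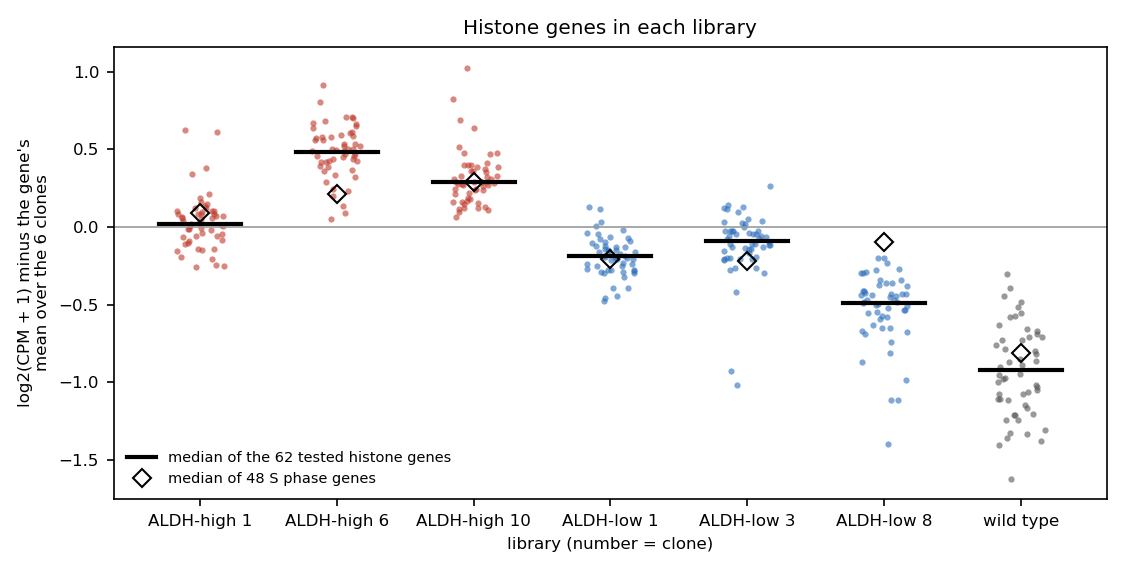
Level of each histone gene of at least 30 CPM, apart from HIST2H3C, in each library (vertical axis, log2(CPM + 1) minus the gene's mean over the 6 clones). Points are genes, the bar is the median of the 62 tested histone genes and the diamond that of 48 S phase and proliferation genes. ALDH-high clone 6 has the highest histone median (0.48) and wild type the lowest (-0.92).

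A group of genes stood apart from the class patterns. For 7 of the 57 genes with a RefSeq window, the first 30 transcribed bases also occur in the window of another gene elsewhere: HIST2H3C, HIST2H3A, HIST2H3D, HIST2H2AA3, HIST2H2AA4, HIST1H4J and HIST1H4K. Their median values over the 6 clones ran from 1.33 to 8.34 CPM, whereas among the other 50 genes only HIST1H3E and HIST1H4F had a median under 30 CPM. The GENCODE transcripts of HIST2H3C and HIST2H3A are identical over 1656 bases, those of HIST2H2AA3 and HIST2H2AA4 over 549 bases, and those of HIST1H4J and HIST1H4K over 312 bases. The sources used here do not give how reads matching several copies were assigned, and its part in these levels was not tested. The deposited column names carry the name of CAGEr, a software package for reads of the 5′ ends of mRNAs. If the reads are such tags, these first bases are where they would fall, but no source used here gives the library type. The table's Ensembl identifier for HIST2H2AA4 is that of HIST2H2AA3 in GENCODE 29, and its identifier for HIST2H2AA3 was not found there. Which of these 2 copies each row holds is therefore uncertain. The 3 pairs are shown from 40 bases before the start, with the first 30 transcribed bases in capitals: HIST2H3C (chr1:149841179-149841248, minus strand), HIST2H3A (chr1:149852568-149852637, plus), HIST2H2AA3 (chr1:149842721-149842790, minus), HIST2H2AA4 (chr1:149851021-149851090, plus), HIST1H4J (chr6:27824052-27824121, plus) and HIST1H4K (chr6:27831531-27831600, minus).
HIST2H3C: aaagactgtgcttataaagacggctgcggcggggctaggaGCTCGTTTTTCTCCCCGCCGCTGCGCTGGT
HIST2H3A: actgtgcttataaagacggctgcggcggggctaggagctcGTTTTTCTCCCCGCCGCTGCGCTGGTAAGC
HIST2H2AA3: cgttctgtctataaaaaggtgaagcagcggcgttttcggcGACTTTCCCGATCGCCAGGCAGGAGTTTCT
HIST2H2AA4: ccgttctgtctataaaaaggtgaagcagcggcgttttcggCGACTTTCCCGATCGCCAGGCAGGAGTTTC
HIST1H4J: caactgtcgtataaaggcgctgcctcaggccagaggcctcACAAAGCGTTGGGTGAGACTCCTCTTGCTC
HIST1H4K: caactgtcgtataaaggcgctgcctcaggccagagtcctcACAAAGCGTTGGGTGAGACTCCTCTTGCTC
HIST2H3C and HIST2H3A differ in these lines only by a shift of the annotated start by 4 bases: over 296 aligned bases of the windows there were 0 mismatches. For HIST1H4J and HIST1H4K there were 5 mismatches in 300 bases.

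HIST2H3C broke this low pattern in 2 clones. It was at 1.87, 2.5 and 4273.65 CPM among the ALDH-high clones 1, 6 and 10, compared with 306.4, 3.26 and 1.44 CPM among the ALDH-low clones 1, 3 and 8, and 0.88 CPM in wild type. In ALDH-high clone 10 it was the highest of all histone genes, above HIST1H3H with 3435.09 CPM, while ALDH-low clone 1 had an intermediate level and the other libraries were under 4 CPM. The groups overlapped, and the change of 1.25 (SE 2.9, limma adjusted p = 0.843) became -2.22 without ALDH-high clone 10. HIST2H3A, with the same sequence, stayed between 1.36 and 3.32 CPM in the clones. HIST2H2AA3, which lies close to HIST2H3C, was also high in ALDH-high clone 10: it was at 2.42, 3.86 and 73.16 CPM among the ALDH-high clones, compared with 6.92, 1.92 and 21.12 CPM among the ALDH-low clones and 1.2 CPM in wild type. Its second high value was in ALDH-low clone 8, where HIST2H3C was at 1.44 CPM, so the 2 genes were not high in the same ALDH-low clone. HIST2H3D reached 9.68 CPM in ALDH-high clone 10 and 2.28 CPM in ALDH-low clone 1, and was between 0.28 and 1.52 CPM elsewhere.

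**Figure D4:**
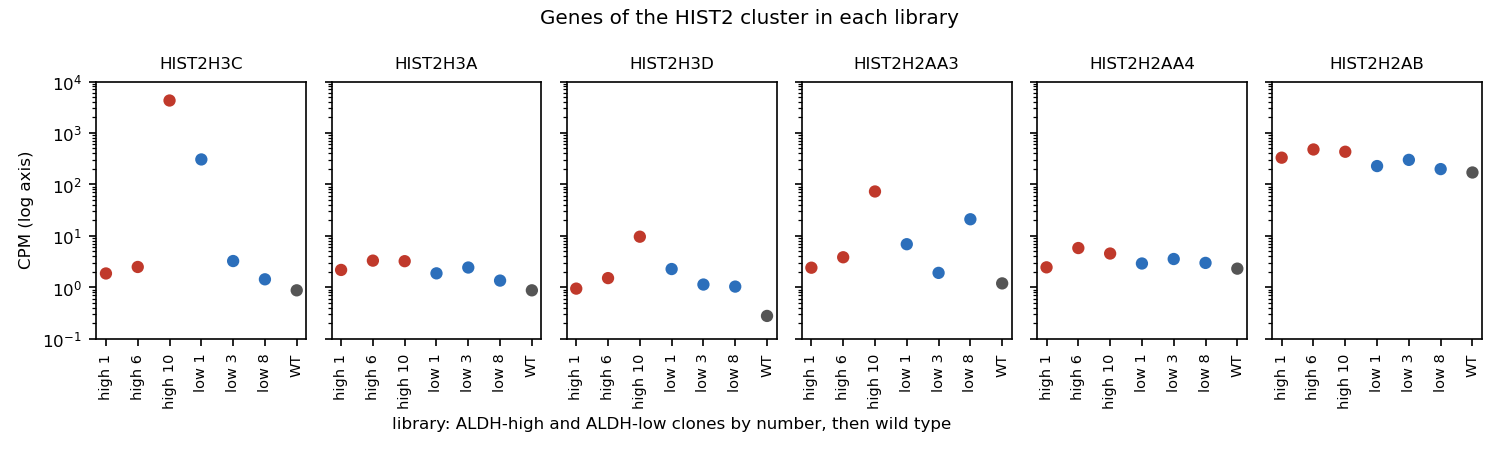
CPM (log axis) of 6 HIST2 genes in the 3 ALDH-high clones, the 3 ALDH-low clones and wild type, 1 point per library. HIST2H3C reaches 4273.65 CPM in ALDH-high clone 10 and 306.4 CPM in ALDH-low clone 1 but stays under 4 CPM elsewhere, while HIST2H2AB, a gene of the same cluster with no copy, is above 170 CPM throughout.

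Genes that make, process and handle histones were counted from 4 lists in the same fit. The lists overlap. SLBP and E2F1 are in both the S phase and processing lists, and MCM2 is in both the S phase and chaperone lists. Among 48 S phase and proliferation genes, 44 changes were positive and 4 negative, with a median of 0.38. Limma called 2 higher and 0 lower (all genes: 0.645% higher, 0.693% lower). At an unadjusted p under 0.05 there were 26 higher and 0 lower, against 10.4% and 9.31% of all genes. DESeq2 called 7 higher (all genes: 3.67%) and edgeR 1, PRIM1 (all genes: 0.425%). PRIM1, the small subunit of DNA primase, was at 155.89, 140.98 and 143.6 CPM among the ALDH-high clones, compared with 59.84, 84.14 and 66.88 CPM among the ALDH-low clones, with 69.26 CPM in wild type. It rose by 1.07 (SE 0.16, limma adjusted p = 0.0287). MCM4, which encodes part of the MCM helicase, rose by 0.76 (SE 0.132, adjusted p = 0.0406), at 273 ± 21.4 CPM in ALDH-high and 161 ± 8.48 CPM in ALDH-low clones. Leaving out 1 clone mostly ended both calls: PRIM1 passed only without ALDH-low clone 3 (limma adjusted p = 0.0206, otherwise 0.053 to 0.125) and MCM4 only without ALDH-high clone 1 (0.0458, otherwise 0.0609 to 0.168). CHEK1, a checkpoint kinase, changed by 0.83 (adjusted p = 0.0543). Per library, the median of this list was 0.09, 0.21 and 0.29 in ALDH-high clones 1, 6 and 10. It was -0.21, -0.22 and -0.1 in ALDH-low clones 1, 3 and 8, and -0.81 in wild type. Wild type lay below all clones for 40 of the 48, against 25.4% of all genes tested. In ALDH-low clone 8 the histone median of -0.49 was thus farther below 0 than that of the S phase list. In bulk libraries, fewer cells in S phase and less histone mRNA per cell cannot be told apart, and the part of the S phase genes' difference in the histone result was not tested.

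The lists of histone mRNA regulators and carriers held changes of both signs. Of 28 genes tested for histone mRNA transcription and processing, 17 changes were positive and 11 negative (median 0.06), and 0 passed by limma. At an unadjusted p under 0.05 there were 5 higher and 0 lower, against 10.4% and 9.31% of all genes. The groups did not overlap for 7 higher and 0 lower, against 14.0% and 12.1% of all genes. DESeq2 called SLBP higher (all genes: 3.67%), and edgeR called 0. SLBP is also 1 of the 7 genes that DESeq2 called in the S phase list. SLBP, the stem-loop binding protein, was at 167.53, 177.43 and 180.08 CPM among the ALDH-high clones, compared with 110.44, 102.1 and 141.92 CPM among the ALDH-low clones, and 124.65 CPM in wild type. Its groups did not overlap, by a change of 0.58 (SE 0.157, adjusted p = 0.111). PARN, a poly(A) ribonuclease, and ZNF473, a zinc finger protein of the U7 processing machinery, each changed by 0.45 (adjusted p = 0.175 and 0.186), and NPAT by 0.44 with overlapping groups (adjusted p = 0.355). Of 32 histone chaperone and deposition genes, 19 changes were positive and 13 negative (median 0.02), and 0 passed by limma. At an unadjusted p under 0.05 there were 5 higher and 2 lower, against 10.4% and 9.31% of all genes. Groups without overlap numbered 4 higher and 4 lower, against 14.0% and 12.1% of all genes. DESeq2 called NAP1L1 higher and HAT1 lower (all genes: 3.67% higher, 4.23% lower), and edgeR called 0. HAT1, which acetylates newly made H4, was at 55.59, 52.45 and 58.76 CPM among the ALDH-high clones, compared with 81.48, 103.31 and 94.4 CPM among the ALDH-low clones, with 41.09 CPM in wild type. All ALDH-high values lay below the ALDH-low values, by -0.73 (SE 0.145, limma adjusted p = 0.0592). HAT1 passed with TMM scaling (-0.75, limma adjusted p = 0.0468) and with DESeq2 (-0.76, adjusted p = 0.000656), and missed the threshold with edgeR (adjusted p = 0.0551). The H2A-H2B chaperone NAP1L1 changed by 0.59 (adjusted p = 0.0995) and the nuclear importer IPO5 by -0.45 (adjusted p = 0.186).

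Histone genes outside the clusters, whose mRNAs are mostly not tied to S phase, were split in direction. Of 12 tested, 4 changes were positive and 8 negative (median -0.14), and 0 passed by limma. At an unadjusted p under 0.05 there were 2 higher and 0 lower, against 10.4% and 9.31% of all genes. DESeq2 called H2AFX higher (all genes: 3.67%), and edgeR called 0. H2AFX, the H2A variant phosphorylated at DNA breaks, had the smallest p of the 12. It was at 494.33, 742.7 and 583.56 CPM among the ALDH-high clones, compared with 337.24, 376.68 and 250.2 CPM among the ALDH-low clones, and 336.67 CPM in wild type. As for most cluster genes, ALDH-high clone 6 was the highest and ALDH-low clone 8 the lowest of the clones, and the change was 0.92 (SE 0.212, adjusted p = 0.0812). The macroH2A gene H2AFY2 changed by 1.25 (SE 0.48, adjusted p = 0.204). The groups did not overlap for 2 genes higher, H2AFX and H2AFY2, and 1 lower, H3F3A, against 14.0% and 12.1% of all genes. The H3.3 genes H3F3A and H3F3B changed by -0.25 and -0.22 (adjusted p = 0.343 and 0.566), and H2AFZ, encoding H2A.Z, by -0.23 (adjusted p = 0.442). H2AFV changed by -0.76, H3F3C by -0.63, the centromeric H3 gene CENPA by -0.20, H1FX by -0.08, H2AFY by -0.07, H2AFJ by 0.10 and H1F0 by 0.17, with adjusted p between 0.337 and 0.923.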

How the data were processed

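Total RNA of 7 cultures was measured, and the authors deposited 1 table of CPM per gene with Ensembl identifier, symbol and strand, rounded to 2 decimals. The submitters' processing notes name the aligner BWA 0.5.9 and, without a role, builds hg19 and mm9. Per the file headers, each column name carries the name of CAGEr, a package for 5′ end reads (CAGE); the library type, the counting and the treatment of reads with several matches are not given in the sources used here. Columns sum to 967084.9 to 1019855.1 CPM. The CPM recover whole reads for 99.82 to 100.0% of values at a tolerance of 0.0051 CPM, the rounding, and for 78.73 to 99.83% at 0.1 read. Summed over rows these gave 24177114 to 25664901 per library. In ALDH-high clone 1 and wild type the sum (25664901 and 25232850) exceeds the library size behind the CPM (25165294 and 25021257). Some reads are thus counted in more than 1 row. A value of 0 could hide as much as 0.118 to 0.123 CPM (3 reads), counting error only.

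Genes that reached 1 CPM in 3 or more clone libraries (12705) were tested with limma 3.58.1 in R 4.3.3 on log2(CPM + 1), with lmFit and eBayes with trend, two-sided, and Benjamini-Hochberg adjustment over all of them at a threshold of 0.05. Fold changes on this scale understate changes of low genes. The script was tested on simulated data. No exact permutation test of a single gene can go below p = 0.1 with 3 against 3. Wild type stayed out of the fit. edgeR 4.0.16 and DESeq2 1.42.0 were run on the recovered reads. Clones are separate clones of 1 line, so p-values measure the spread between clones.

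The genes described, the lists and the rule for named genes were chosen with earlier results of these data known. The rule names, per class, the 3 smallest p, the 2 highest levels and the largest p, the genes farthest outside the clones in wild type, and the 3 smallest p of each list. No 2 histone rows are identical. Symbols were matched to GENCODE 29 transcripts and through their gene identifiers to RefSeq promoter windows (GRCh38.p14); HIST3H2BA, HIST1H3I, HIST1H2AH, HIST1H4A, HIST1H4C, HIST1H3J, HIST2H3DP1 and HIST2H2BB had no entry. Many of the table's Ensembl identifiers for histone genes were not found in GENCODE 29, so for these the match rests on the symbol. Histone genes that the table does not list were not analysed here.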

Additional observations from a re-analysis of the deposited data

How the results depend on the processing

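No paired analysis was made, since the clone numbers name separate clones and pair nothing, also where both sorted groups have a clone 1. Pseudocounts of 0.1 and 5, no filter, a filter of 5 CPM, median-ratio and TMM scaling, all 7 libraries in the fit, no trend, 1 row per set of identical rows, edgeR and, added after the data were seen, scaling to the genes outside the histone set each left 0 histone genes called and 61 of 62 changes positive (56 of 57 with the 5 CPM filter). DESeq2 called 10. Leaving out a clone gave 0 to 2 histone genes called higher, 10 to 46 at an unadjusted p under 0.05, 0 to 1 without overlap and lower, and an H4 median of 0.29 to 0.60. The same limma fits called 34 to 173 of all 12705 genes, both directions together. Their shares of all genes at an unadjusted p or without overlap were not computed, and the shares with all clones do not apply to them. Among single genes that changed sign, leaving out a clone gave -2.22 to 3.44 for HIST2H3C, -0.97 to 1.25 for HIST2H2AA3, -0.13 to 1.10 for HIST2H3D and -0.13 to 0.01 for HIST1H3E. It gave -0.22 to 0.57 for H1F0, -0.22 to 0.06 for H1FX, -0.07 to 0.35 for H2AFJ and -0.34 to 0.33 for H2AFY, which was 0.01 with edgeR and 0.02 with DESeq2; the cause was not tested. PRIM1 passed in every setting that kept all clones, and MCM4 in all of them but no trend, the 5 CPM filter and edgeR (adjusted p = 0.0665, 0.0524 and 0.0517). Precision is limited by 3 clones per group and 1 wild type library, and for the genes under about 10 CPM by read number.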
